A study of Gallus gallus with 8 samples.

Results

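Chromosome 21 of the chicken (galGal6) is a microchromosome, and among the 32 numbered chromosomes with peaks it had the highest ratio of Nrf2 CUT&Tag peaks in the HT group to those in the PT group. It was chosen by that ratio of mean peaks per list, so the HT and PT values on it are described and not tested. Its members are all peaks that the 8 deposited lists place on it, 374 of 66669, merged into regions wherever peaks overlapped or touched. This gave 182 regions of 30246 in the whole series.

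The lists came from broiler liver, 4 in each group, 1 list per sample. HT samples carry high temperature as their treatment type. PT samples carry phloretin, a plant polyphenol, as treatment type, are called normal in another field, and share with HT a protocol field that names high temperature for all 8 samples. What PT birds received is therefore not settled by the labels, and the groups are called HT and PT throughout. Not given in the sources used here are strain beyond broiler, age, the antibody and whether each sample is 1 bird. No annotation of galGal6 was used here, so the liver label was not checked against marker genes.

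Nrf2 is a transcription factor that is held in the cytoplasm and degraded through KEAP1 until oxidants or electrophiles block that step. It then enters the nucleus, pairs with small Maf proteins and binds antioxidant response elements near genes for glutathione synthesis, NADPH supply and detoxification. CUT&Tag maps such binding with an antibody that directs a transposase to cut and tag nearby DNA. Birds carry many microchromosomes, which are short, rich in genes and rich in G and C. In the RefSeq gene table of another assembly, GRCg7b, chromosome 21 holds 322 genes, of which 267 are protein coding. Of 27 textbook Nrf2 pathway and target genes matched there, 2 lie on chromosome 21. They are PGD, an NADPH-producing enzyme of the pentose phosphate pathway, and AKR7A2, an aldehyde reductase. Both are known as Nrf2 targets from mammals. The assemblies differ, so no peak was assigned to these or other genes and no sequence is shown.

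Identical peak ends were frequent within each group, so its lists may not be independent samples. Of the chromosome 21 peaks of a list, 43.1% to 67.6% had the same ends in another given HT list and 19.2% to 92.9% in another given PT list (12 ordered pairs each). Over the full lists the ranges were 30.8% to 54.0% and 28.0% to 67.2%. Where each of 2 lists had 1 peak in a region, both ends were identical in 227 of 293 comparisons within HT (77.5%) and in 49 of 58 within PT (84.5%). Between the groups the number was 0 of 33. Over full lists, at most 0.0977% of the peaks of a list had the same ends in a given list of the other group. The score of the peak, as the authors' caller gave it, was also equal in 18 of the 227 HT and 6 of the 49 PT comparisons. The lists were thus not plain copies, but the score need not identify a peak. The distant regions chr21:3896678-3897274 and chr21:6206732-6207328 both had scores of 41.2, 42.57, 43.75 and 40.99 in HT lists 1 to 4. Whether lists share reads was not tested. All 14 peaks of PT list 2 lay in regions that PT list 1 also held, and 13 of them had identical ends there, against 81.9% and 67.2% of the peaks over the whole of PT list 2. Standard deviations between lists may therefore be smaller than those between birds. The lists hold no read counts, so depth is unknown. Full lists held 5120 to 7302 peaks in PT and 9437 to 11141 in HT.

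HT lists held more than 3 times as many chromosome 21 peaks as PT lists. PT lists 1 to 4 had 23, 14, 22 and 26 peaks there. HT lists 1 to 4 had 72, 82, 68 and 67. The groups did not overlap, as was the case on every one of the 32 numbered chromosomes (100%), so that separation is no feature of chromosome 21. Means were 72.25 ± 6.85 in HT and 21.25 ± 5.12 in PT (SD, n = 4 lists each), a ratio of 3.40. The next chromosomes in order were 28, with a ratio of 2.50, and 23, with 2.44. The median over the 32 was 1.85. Covered length followed the peak number, with 33.6 ± 2.89 kb per HT list and 9.98 ± 2.38 kb per PT list, a ratio of 3.37.

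Part of this ratio went with the longer HT lists. As a share of its list, chromosome 21 took 0.705 ± 0.0714% of the peaks in HT and 0.330 ± 0.0530% in PT, a ratio of 2.13. With the 5120 highest-scoring peaks of every list, PT lists 1 to 4 kept 17, 14, 14 and 20 peaks on the chromosome and HT lists 1 to 4 kept 31, 32, 26 and 29. The lists still did not overlap, and the ratio was 1.82 against a median of 1.08 over the 32 chromosomes. Chromosomes 22, 26, 28 and 32 came close to it, with 1.68, 1.66, 1.62 and 1.61. Chromosome 21 ranked 1 in full lists, as a share of the list, with equal list lengths and in the highest-scoring 50% of each list, where its ratio was 3.72. These settings reuse the same lists, so the rank is not independent of the choice of the chromosome.

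**Figure D1:**
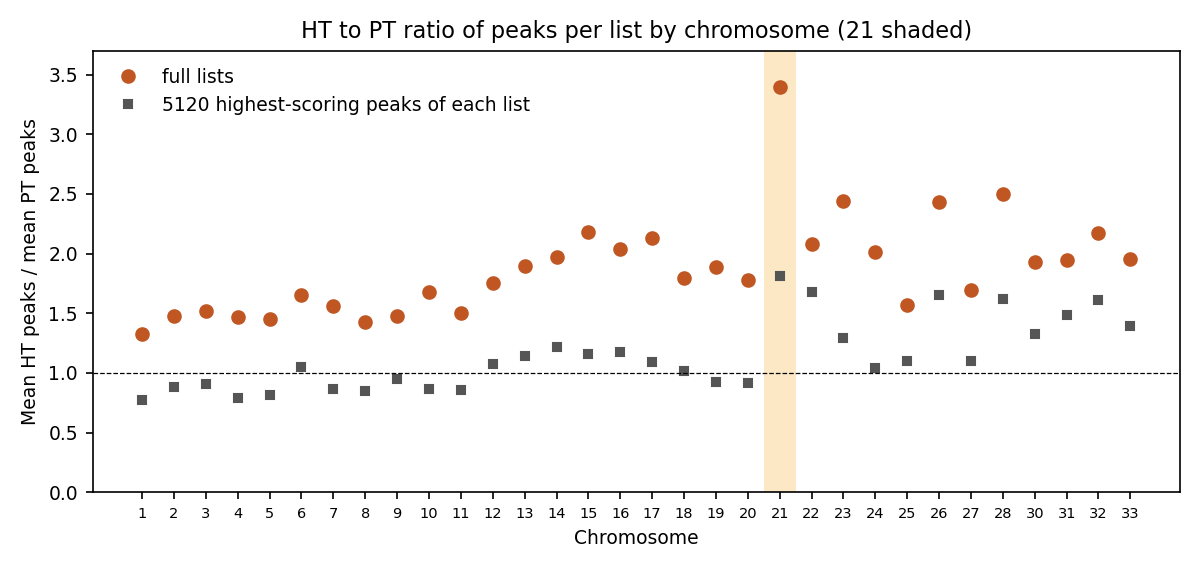
Mean HT peaks over mean PT peaks per list on each numbered chromosome, for full lists (circles) and for the 5120 highest-scoring peaks of each list (squares); the dashed line marks equal numbers. Chromosome 21, shaded, lies at 3.40 in full lists and at 1.82 with equal list lengths, the highest value in both. With equal list lengths chromosome 22 is next, at 1.68.

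The neighbours in the numbering show the level from which chromosome 21 departs. Chromosome 20 had 133.25 peaks per HT list and 74.75 per PT list, chromosome 22 had 77 and 37, chromosome 23 had 97 and 39.75, and chromosome 24 had 64.5 and 32. In HT, chromosome 21 thus held about as many peaks as chromosomes 22 and 24 and fewer than chromosomes 20 and 23. In PT it held fewer than any of these. It held more annotated genes (322 in GRCg7b) than chromosome 22 (230) or chromosome 24 (244), and fewer than chromosome 20 (479) or chromosome 23 (351). With equal list lengths the mean HT number was 29.5 on chromosome 21, 49.5 on chromosome 22 and 26.75 on chromosome 24. The PT numbers there were 16.25, 29.5 and 25.75. Chromosome 20 then had 54 in HT and 59 in PT, and chromosome 23 had 40.75 and 31.5. These differences between chromosomes were not tested.

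The HT excess ran along most of chromosome 21 and was smallest in its first 1 Mb. Peaks were assigned by their midpoint to 7 bins of 1 Mb, the last of which ends early because the last peak ends at 6840260. In 6 of the 7 bins every HT list had more peaks than every PT list. The same held for 33.4% of the 1 Mb bins with a peak over all numbered chromosomes. Over chromosomes 11 to 33 without 21, which are smaller and denser in peaks, it held for 57.0%. The contrast is the one that chose the chromosome, so nothing is read from the count.

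In bin 1 PT lists 1 to 4 had 6, 4, 5 and 6 peaks and HT lists 1 to 4 had 8, 9, 7 and 5. This was the bin in which the groups overlapped, through HT list 4, and its ratio was 1.38. It held 24.7% of the PT peaks of the chromosome but 10.0% of the HT peaks. Without it the ratio of the chromosome was 4.06.

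PT lists were almost empty in bins 2 and 4. In bin 2, PT lists 1 to 4 had 0, 0, 1 and 1 peaks and HT lists 7, 5, 4 and 5. In bin 4, PT lists had 0, 0, 2 and 1 peaks and HT lists 8, 14, 10 and 11. The ratios of 10.5 and 14.3 rest on PT means of 0.5 and 0.75 peaks, so their size is uncertain. The lowest HT list and the highest PT list had 4 and 1 peaks in bin 2, and 8 and 2 in bin 4.

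In the other bins both groups had peaks. Bin 3 had 4 ± 2.16 per PT list and 12.5 ± 1.73 per HT list (SD, n = 4 lists each, as in what follows). Bin 5 had 4 ± 1.41 and 9.75 ± 0.5. Bin 6 had 4, 1, 0 and 3 in PT lists 1 to 4 and 12, 14, 11 and 12 in HT lists 1 to 4. Bin 7 had the most HT peaks, 14.5 ± 1.29, against 4.75 ± 2.22 in PT. The ratios of these bins ran from 2.44 in bin 5 to 6.13 in bin 6.

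**Figure D2:**
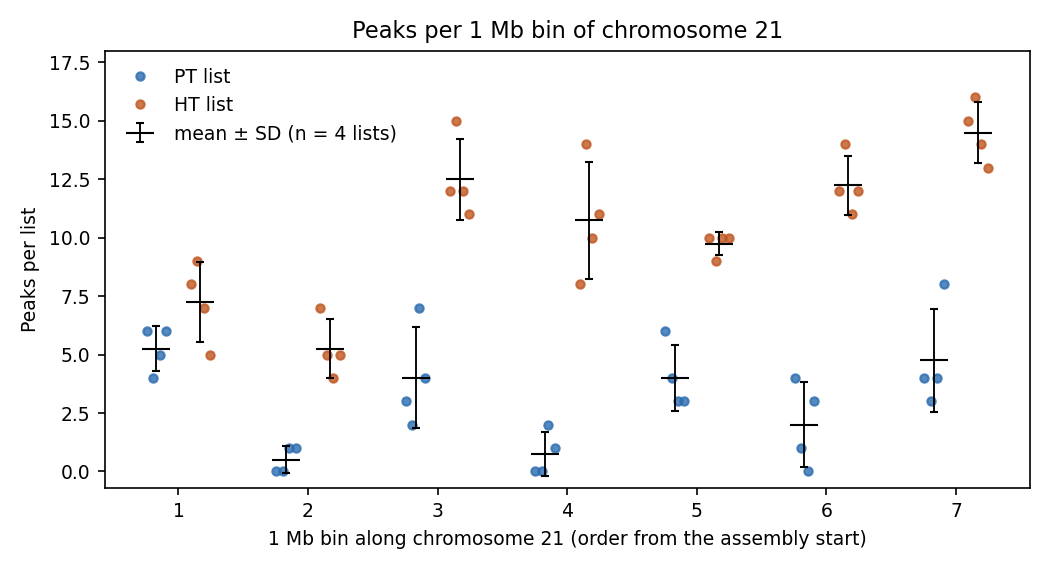
Peaks per list in each 1 Mb bin of chromosome 21, in order from the assembly start; points are single lists and black marks give the mean ± SD of 4 lists. The groups overlap in the first bin and are apart in bins 2 to 7, with PT lists at 0 to 2 peaks in bins 2 and 4.

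No single bin carried the excess of 51 peaks per list. Bin 6 held the largest part, 10.25 peaks or 20.1%, and bin 1 the smallest, 2 peaks or 3.92%, where an even spread over 7 bins would give 14.3% each. Bins 4 and 7 held 19.6% and 19.1%. Leaving out each bin in turn kept the ratio of the rest between 3 and 4.06. In 14 bins of 0.5 Mb the largest part was 14.2%, where an even share is smaller than over 7 bins. Every HT list had more peaks than every PT list in 8 of these 14. In 1 Mb bins shifted by 0.5 Mb, 8 in number, the largest part was 26.5%, where an even share is also smaller than over 7 bins. The groups were apart in 5 of these 8.

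The spread was narrower with equal list lengths. With 5120 peaks per list, bin 1 had 4.5 peaks per list in both groups. Bin 7 had 4.75 ± 1.71 in HT and 4.25 ± 1.89 in PT, and overlapped. Bins 2 and 4 were the 2 of 7 in which the lists remained apart, with 2 ± 0 against 0.25 ± 0.5 and 4.75 ± 0.5 against 0.5 ± 0.577. Bin 4 then held 32.1% of the excess. This setting keeps the whole of PT list 2 and shortens every other list. In the highest-scoring 50% of each list, every list is shortened by the same share, so HT lists stay longer than PT lists. There the excess was 21.75 peaks per list and reached all 7 bins, as in full lists. Bin 4 held 19.5% of it, bins 5 and 7 held 17.2% each, bins 3 and 6 held 16.1% each, and bins 1 and 2 held 6.90% each. In bin 7, PT lists 1 to 4 then had 2, 0, 0 and 3 peaks and HT lists 7, 3, 5 and 5. The lists were apart in bins 3, 4 and 5. How much of the excess lay in bin 7 thus depended on how the lists were shortened.

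The first 1 Mb was also set beside that of other chromosomes. Over the other 31 numbered chromosomes the first bin had an HT to PT ratio of 1.77, against 1.55 in the remaining bins, and every HT list exceeded every PT list in 23 of the 31 (74.2%) against 31.6% of the remaining bins. In the other 8 this was not so, and neither was it on chromosome 21. Over chromosomes 11 to 33 without 21 the ratio was 2.02 in the first bin and 1.89 in the rest, and 17 of 21 first bins kept the groups apart. On chromosome 21 the ratio was 1.38 in the first bin and 4.06 in the rest. One chromosome gives no spread for this contrast, and it was not tested.

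In windows of 100 kb, HT peaks also reached along most of the chromosome. Of 69 windows from the first to the last peak, 58 held a peak of some HT list and 33 a peak of some PT list. HT lists occupied 40 to 46 windows each and PT lists 13 to 19. All 4 HT lists had a peak in 31 windows and all 4 PT lists in 9. Peaks per occupied window were 1.69 ± 0.0772 in HT and 1.24 ± 0.122 in PT, so the ratio of occupied windows, 2.51, made up more of the HT excess than crowding within windows. In 12 of the 63 windows with a peak (19.0%) all 4 HT lists and no PT list had one, against 9.89% over all numbered chromosomes. Windows of the smaller chromosomes were not counted apart, and the contrast chose the chromosome, so nothing is read from this difference. No list had more than 5 peaks in a window.

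**Figure D3:**
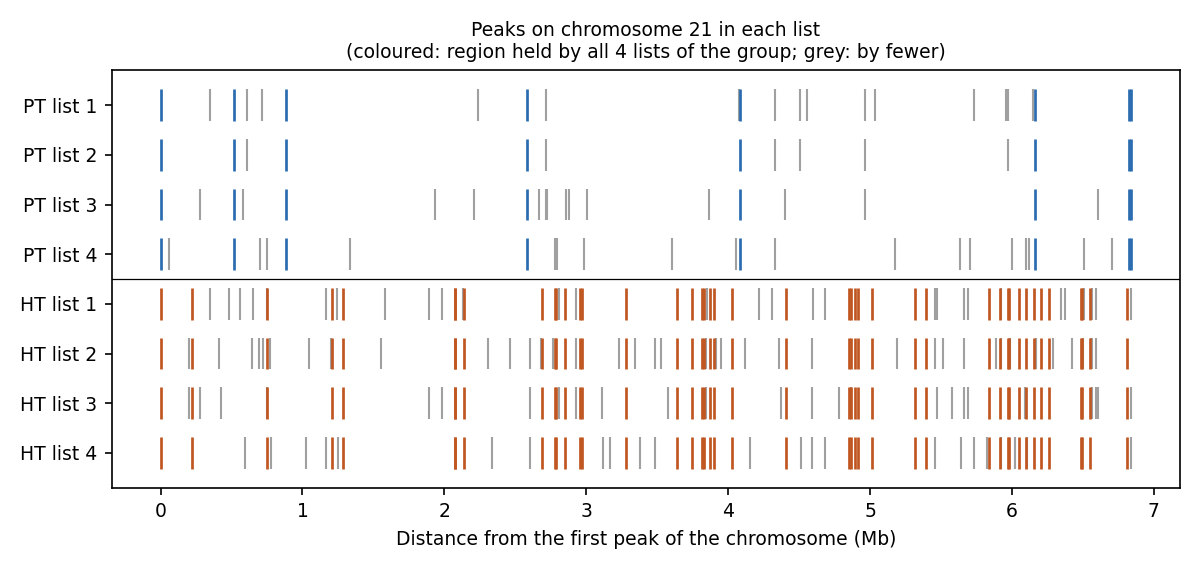
Position of every chromosome 21 peak in each list, as distance in Mb from the first peak; coloured marks lie in regions held by all 4 lists of the group and grey marks in regions held by fewer. HT marks run the length of the chromosome with 43 regions in all 4 lists, and PT marks leave bins 2 and 4 of the 1 Mb bins nearly empty and share 8 regions.

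Regions met by lists of both groups were few on chromosome 21. Of the 182 regions, 4 (2.20%) were held by at least 1 list of each group, against 6.81% over the whole series. Among numbered chromosomes this share ran from 1.55% on chromosome 17 to 20.4% on chromosome 30. A single list accounted for 107 regions (58.8%, against 55.9%). Regions found in all 4 HT lists and in no PT list numbered 41 (22.5%, against 14% over the series and 23.9% on chromosome 32). Those of all 4 PT lists and 0 HT lists numbered 6 (3.30%, against 6.83%), and all 8 lists held 1 (0.549%, against 2.41%). These shares follow from the same lists as the HT to PT ratio, and nothing is read from their distance to the whole series. The remaining regions were 18 in 2 or 3 HT lists alone, 6 in 2 or 3 PT lists alone and 3 in other combinations of both groups.

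**Figure D4:**
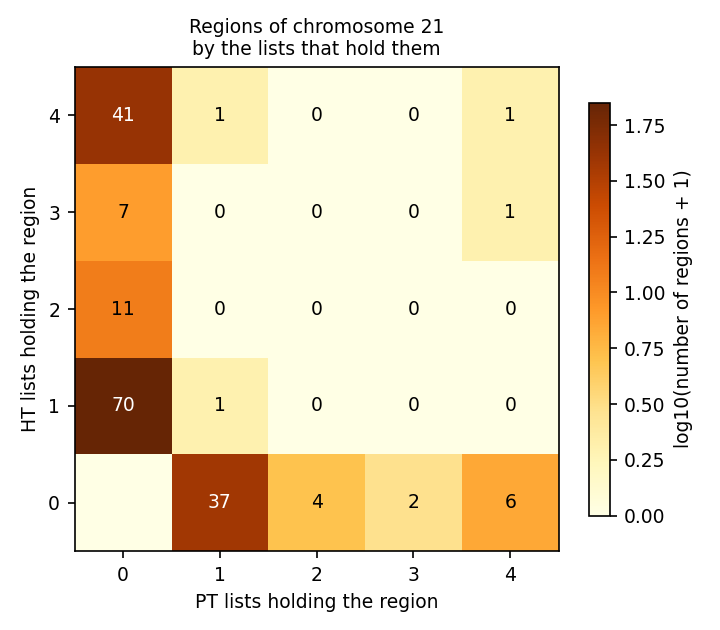
Number of chromosome 21 regions by how many HT lists (vertical) and PT lists (horizontal) hold them, with shading on a log10 scale. Counts lie along the edges, with 41 regions in all 4 HT lists and 0 PT lists, and the cells with both groups sum to 4.

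Most of the excess lay in regions that every HT list held. Regions of all 4 HT lists gave 43 peaks in each HT list, and regions of all 4 PT lists gave 8 in each PT list. The difference of 35 peaks was 68.6% of the excess. This share was not computed for other chromosomes, so it is not read as particular to chromosome 21. Regions of 1 list of the group gave 17.75 ± 7.59 peaks per HT list and 9.75 ± 7.5 per PT list. The number of peaks in regions that no other list held was 15, 28, 10 and 17 in HT lists 1 to 4 and 8, 0, 12 and 17 in PT lists 1 to 4. PT list 4 thus had 17 of its 26 peaks to itself and PT list 2 had 0 of its 14. The ratio of regions in all 4 HT lists to regions in all 4 PT lists was 5.38 on chromosome 21. It was 1.81, 2.47, 2.79 and 2.46 on chromosomes 20, 22, 23 and 24. The next highest among numbered chromosomes were 3.75 on chromosome 15 and 3.33 on chromosome 28.

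Covered bases were shared within groups and hardly across them. The Jaccard index, the bases shared by 2 lists over the bases covered by either, was 0.429 to 0.605 for the 6 HT pairs. For the 6 PT pairs it was 0.188 to 0.656, with lists 1 and 2 at the top and the 3 pairs with list 4 at the bottom. For the 16 pairs across groups it was 0.00788 to 0.0218. The index was not computed over the whole series, so these values are not read as particular to chromosome 21.

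Identical ends ran through the regions of 1 group. Of the 41 HT regions, 40 had the same peak ends in at least 2 HT lists and 25 in all 4. Over all such HT regions of the series the shares were 95.9% and 50.2%. Of the 6 PT regions, all had the same ends in at least 2 lists and 4 in all 4, against 98.9% and 62.6% over the series. These shares of regions were not tested against those of the series. Among all HT peaks, identical ends were more frequent on chromosome 21, at 43.1% to 67.6% against 30.8% to 54.0% over full lists. In PT the ranges were 19.2% to 92.9% and 28.0% to 67.2%. When each distinct peak interval was counted once per group, HT had 158 intervals and PT 56, a ratio of 2.82. When regions with shared peak ends were left out, the ratio of peaks per list was 2.08, no 1 Mb bin kept the groups apart, and 1 HT region and 0 PT regions were left.

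The 41 HT regions were 260 to 880 bp wide with a median of 522 bp. They appeared in every bin, with 1, 2, 9, 7, 6, 7 and 9 in bins 1 to 7. The median distance between neighbours was 70.0 kb and the longest was 982 kb, from the single region of the first bin to the next one. Within that gap lay chr21:748783-749465, which all 4 HT lists also held but which is left out here because 1 PT list held it. Scores were used to rank peaks within each list, and the mean percentile of a region is over the lists that held it, with 100 as the highest score. The median of this mean percentile was 43.8 over the 41, and it ran from 5.87 to 89.5. Over all 4234 such regions of the series the median was 54.7.

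The 8 of them with the highest mean percentile lay in bins 3, 4, 5 and 7. First was chr21:3871931-3872190, 260 bp wide, with scores of 85.02, 88.33, 85.02 and 85.93 in HT lists 1 to 4 and the same ends in all 4. Next was chr21:3279043-3279633 (591 bp), with scores of 71.42, 87.62, 75.19 and 84.72. After it, chr21:3638636-3638916 (281 bp) had 74.42, 71.24, 77.88 and 74.13. These 3 regions, all in bin 4, stood where PT lists 1 and 2 had no peak at all.

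Next came chr21:6258664-6259061, with scores of 56.88 to 88.33, and chr21:2958708-2959332, with 65.68 to 78.29. After these came chr21:2134630-2135034 (63.04 to 73.67), chr21:2967580-2968068 (56.93 to 74.13) and chr21:4912427-4913252 (55.12 to 73.81). Of the 8 merged regions, 2 were at most 281 bp wide. Single peaks could be narrower than their region. In 3 HT lists each, the peak was 250 bp wide in chr21:6258664-6259061 and 278 bp wide in chr21:2967580-2968068. The score of 88.33 that the first had in HT list 2 recurred there in other narrow peaks of the chromosome. One was its 250 bp peak in chr21:6258664-6259061, itself among the 8. The others were chr21:4117489-4117748 (260 bp) and chr21:5988397-5988646 (250 bp), which no other list held. How far the score depends on width was not tested. How duplicate reads were treated is unknown, so the order does not rank binding strength. In bin 6, which held the largest part of the excess, the first 5 by the same order were chr21:5968959-5969253, chr21:5392112-5392576, chr21:5315845-5316366, chr21:5915787-5916157 and chr21:5834492-5835371. Their scores ran from 45.75 to 63.88, and their mean percentiles from 36.4 to 65.4.

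The 6 PT regions lay in bins 1, 3, 5 and 7. Their mean percentile had a median of 59.6 and ran from 28.6 to 79.6. The first was chr21:2579323-2579819 (497 bp), with scores of 73.4, 86.18, 78.71 and 65.31 in PT lists 1 to 4. It was followed by chr21:886776-887145 (370 bp; 68.16, 72.27, 65.77 and 60.28) and chr21:4082918-4083303 (386 bp; 63.65, 66.4, 65.77 and 56.77). The others were chr21:515691-516212, chr21:6164785-6165280 and chr21:6825834-6826432. In bin 1 there were 2 of these regions against 1 HT region, and in bins 2, 4 and 6 there were 0. The nearest of the 41 HT regions lay 10.2 kb from the PT region of bin 7 at 6164785 and 320 kb from that at 886776. Other HT peaks lay closer. They included a peak of HT list 2 at chr21:6167196-6167670, near the former. Near the latter was chr21:748783-749465, held by all 4 HT lists and 1 PT list.

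The region held by all 8 lists was at the very start of the chromosome, chr21:3-723, and had the highest score on the chromosome in every list. Scores were 498.7, 488.85, 500.53 and 488.85 in PT lists 1 to 4 and 544.46 to 627.61 in HT lists. Its mean percentile was 99.6. The last region, chr21:6839662-6840260, was held by all 4 PT lists and by HT lists 1, 3 and 4. Its scores were 41.89 to 57.95 and its mean percentile 25.8. Of the 4 regions met by both groups, these 2 mark the outer ends of the peaks, and both were chosen after their values were seen. The other 2 were chr21:748783-749465, in 4 HT lists and 1 PT list, and chr21:5728509-5729124, in 1 list of each group.

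Peaks on chromosome 21 ranked below those of the rest of their list in all 8 lists. The median score percentile was 48.6, 37.6, 38.2 and 41.1 in PT lists 1 to 4 and 41.4, 39.2, 40.8 and 45.3 in HT lists 1 to 4. The difference to the remaining peaks of the same list averaged -8.52 ± 3.72 points (SD, n = 8 lists). This measure compares peaks within a list and does not use the HT to PT ratio. An exact two-sided sign-flip permutation test over the 8 lists gave p = 0.00781, the smallest value possible (adjusted p = 0.0156 by Benjamini-Hochberg over 2 tests), and shared peaks within groups make this p too small. Within the highest-scoring 50% of each list the difference was -2.84 points and below 0 in 4 of 8 lists (exact permutation p = 0.469). With equal list lengths it was -8.30 points and below 0 in 6 of 8 lists (exact permutation p = 0.03125). In full lists the difference was -8.67 ± 5.03 points in PT and -8.37 ± 2.61 in HT. Chromosomes below the rest of the list in all 8 lists numbered 6 of 32 (18.8%), chromosome 20 among them at -7.58 points, while chromosome 22 was above it by 12.5 points.

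In full lists, peak width did not differ from the rest of the lists in 1 direction. Median widths on chromosome 21 were 492, 502.5, 487.5 and 494.5 bp in PT lists 1 to 4 and 471, 471.5, 464.5 and 484 bp in HT lists 1 to 4. Every PT list was wider there than in the rest of the list, by 3.5 to 20.5 bp, and every HT list narrower, with differences of -34.5 to -11 bp. Over the 8 lists the mean difference was -7.06 ± 21.1 bp (exact two-sided sign-flip permutation p = 0.367, adjusted p = 0.367). In the highest-scoring 50% of each list it was -59.4 bp and below 0 in 7 of 8 lists (exact permutation p = 0.0156). With equal list lengths it was -35.9 bp and also below 0 in 7 of 8 lists (exact permutation p = 0.0391). In these settings the lists no longer split into wider PT and narrower HT lists. In full lists this split was also present on chromosome 23 and 1 other of the 32 chromosomes (3 in all, 9.38%).

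**Figure D5:**
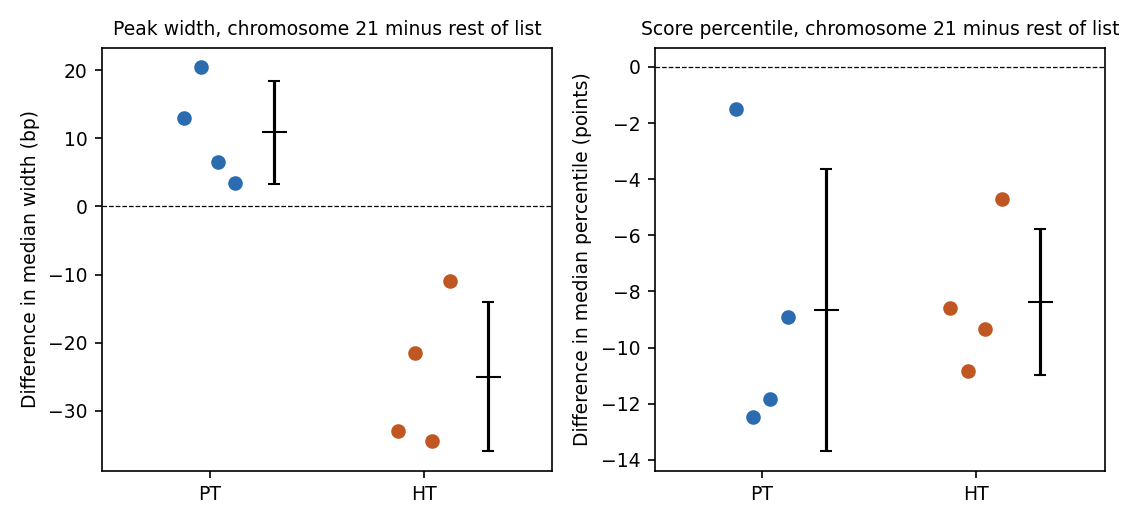
Difference between the median of chromosome 21 peaks and the median of all other peaks of the same list, for width in bp (left) and score percentile in points (right); points are lists and black marks the mean ± SD of 4. Width differences lie above 0 in the PT lists and below 0 in the HT lists, while all 8 percentile differences lie below 0.

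Width and score rank were also followed along the bins. The mean of list medians for width in HT ran from 438 bp in bin 3 to 489 bp in bin 5, and in PT from 425 bp in bin 1 to 538 bp in bin 7. Score percentile was highest in the first bin in both groups, at 61.2 ± 13.1 in HT and 63.8 ± 11.6 in PT. In the other bins it ran from 38.6 to 49.3 in HT, and in bins 3, 5 and 7 from 33.1 to 41.9 in PT. In bins 2 and 4, 2 PT lists had any peak, and in bin 6, 3 PT lists did, so their PT values of 42.9, 44.8 and 35.6 rest on few peaks. The first bin was thus the one with the fewest excess HT peaks and, by the mean of list medians, the highest score percentile in both groups. In HT its spread overlapped that of bin 5, at 49.3 ± 11.6, and the difference was not tested. Regions with an HT peak were held by a mean of 1.61 HT lists in bin 1 and 1.62 in bin 2, against 2.15 to 2.63 in bins 3 to 7. For regions with a PT peak the mean was 1.91 PT lists in bin 1 and 1 in bins 2 and 4.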

How the data were processed

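Nrf2 CUT&Tag peak lists of 8 broiler liver samples were used, 4 per group, with group and replicate number read from the titles. Per the submitters' processing notes, cutadapt (1.9.2) and Bowtie2 (2.2.4) were used with galGal6, without settings. Peak names begin with MACS; version, control, duplicate handling and pooling remain unknown here. In the deposited lists, column 5 is the score of the authors' caller, from 40 to 3100 on a scale not stated. It served for ranking and filtering inside each list.

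Starts were raised by 1 base. Peaks that overlapped or touched were merged, and a list held a region with at least 1 bp of a peak. Named regions were the 8 per class, and 5 in the bin of largest excess, with the highest mean score percentile. Chromosome, tests, bins and gene list were chosen with earlier results of these data known. The 100 kb windows, the first-bin comparison and the values of other chromosomes for width and rank were added after the data were seen. HT and PT were not tested against each other; 2 within-list differences were tested by exact sign-flip permutation over 256 sign assignments. No label says that samples came from separate birds, so p-values measure the spread between these lists, which may be technical. Alternatives were stricter lists, other bins, merging and cover rules, and leaving out each list. Code was tested on simulated lists. Software was Python 3.11.15 with numpy 2.4.6, pandas 2.3.3 and, for plots, matplotlib 3.10.9.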

Additional observations from a re-analysis of the deposited data

Results flagged for a closer look

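PT list 2 occupied 13 windows of 100 kb on chromosome 21, away from the 18, 18 and 19 of the other PT lists; it was also the shortest list. In the fifth 1 Mb bin 1 HT list had 9 peaks where the other 3 had 10 each, a gap of 1 peak. These 2 values passed Dixon's critical value among 26 groups of 4 lists examined, and chance flags about 1 in 20 groups. In full lists, the width of chromosome 21 peaks relative to the rest of the list moved in opposite directions in the 2 groups. Means were 10.9 bp in PT and -25 bp in HT, a difference of -35.9 bp that was not tested. In the highest-scoring 50% of each list, and with equal list lengths, width was below the rest in 7 of 8 lists.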

How the results depend on the processing

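Of 115 alternative values, 91 kept direction and side of the threshold, or moved by less than the spread between lists or 1.5 times. Many of these leave out 1 of the lists, which says little when lists share peaks. The cause of the exceptions was not tested unless the setting, such as fewer peaks, gives it. In the highest-scoring 50% of each list, 3 bins kept the groups apart, 14 regions were in all 4 HT lists alone and 3 in all 4 PT lists alone. There the width difference was -59.4 bp and the percentile difference -2.84 points. With equal list lengths the ratio was 1.82, 2 bins kept the groups apart, bin 4 held 32.1% of the excess, 13 regions were in all 4 HT lists alone, and the width difference was -35.9 bp. As a share of the list the ratio was 2.13. Without regions that share peak ends within a group it was 2.08, with 0 bins apart, a largest part of 21.95%, 1 region in HT lists alone, 0 in PT lists alone and 0 in all 8. The largest part of the excess was 14.2% in 0.5 Mb bins, 26.5% in 1 Mb bins shifted by 0.5 Mb, and 19.6% to 21.4% without each list. Regions of all remaining lists were 1 to 2 without each list. Without each list the ratio was 3.05 to 3.67, and 6 to 7 bins were apart. In HT alone the percentile difference was -8.37 points, and in PT alone -8.67 points. The width difference in PT alone turned to 10.9 bp. Each of these has an exact permutation p of 0.125, the smallest that 4 lists can give. The ratio without the first 1 Mb and with distinct intervals was added after seeing the data. No paired analysis was possible because the sample titles name no pairs of HT and PT lists. The HT and PT values, which chose the chromosome, come from no test, and each within-list difference takes the list as its own control. The lists give no read depth, so what depth limits cannot be stated.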
